A study of Mus musculus with 5 samples.

Results

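Livers of mice returned to a normal diet after a long period on a high-fat, high-fructose diet were compared with livers of untreated mice of the same age, to describe what still differed after the return. The group HFHFr-N had spent 16 weeks on the diet rich in fat and fructose (HFHFr) and the next 4 weeks on normal diet, and its label describes the mice as insulin resistant. The control group was untreated. All mice were males of the inbred strain C57BL/6J, aged 25 weeks, and each group was 1 pool of liver RNA from 5 mice, hybridised to 1 array. These are 2 of the 5 arrays of the study. The other 3 arrays are given beside them for single genes. HFHFr-F mice stayed on the HFHFr diet for 20 weeks. HFHFr-NA and HFHFr-FA mice had 16 weeks of it, followed by 4 weeks of all-trans retinoic acid, an active vitamin A metabolite, mixed into normal diet (HFHFr-NA) or into the HFHFr diet (HFHFr-FA). With 1 pooled array in each group there was no spread between replicates and no test between groups, so "higher" and "lower" describe these pools alone.

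Fructose fed in excess enters liver triglyceride through lipogenesis, the making of fatty acids from sugar, which insulin and the transcription factor SREBP-1c drive. Stored triglyceride lies in droplets coated by proteins such as CIDEA. Liver genes also follow the sex-specific rhythm of growth hormone release, the circadian clock, the supply of amino acids, and cytokines that switch on acute phase proteins. Each of these programmes has well-known target genes in mouse liver, and the comparison is ordered by them.

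Levels are given as log2 of the processed spot signal minus the 75th percentile of that array, so that 0 is the signal which 25% of spots exceeded, and ratios as the difference of these levels, HFHFr-N minus control. A gene counted as measured when its probe was well above background on either array or both. The levels of the 2 arrays had a Pearson correlation of 0.993 across the 13520 genes measured on both, which describes the arrays and treats genes as points that share them. Of all 14507 measured genes 5% had log2 ratios below -0.50 and 5% above 0.55, and the median was 0.03. Ratios were above 0 for 54.2% of them and below 0 for 45.4%. In HFHFr-N 167 genes (1.15%) were higher by 2-fold or more and 121 (0.834%) lower, which makes 1.99% in either direction; normexp background correction, which shrinks ratios of dim genes, left 46 higher and 31 lower. Both arrays measured 103 of the higher genes (0.762% of 13520) and 77 of the lower (0.57%). The other 64 higher and 44 lower genes were above background on 1 array, and their ratios are bounds. A bound sets the other array at the dimmest level that passed there, or at the gene's own level if higher. Some genes that did not pass lay above that dimmest level, so a bound is no strict limit on the ratio. At least 4-fold differences were found for 20 higher and 13 lower genes. The counts in each list below are to be read against the shares of 1.15% higher and 0.834% lower over all genes. Probes spotted 10 times had a median SD of 0.07 and a highest SD of 0.55 for the log2 ratio over their spots (136 probes above background). These SDs cover error within an array and hold no difference between mice, RNA extractions or arrays. Each of the 12 hepatocyte markers, such as albumin and transthyretin, was well above background on both arrays, with a median level of 8.33 in HFHFr-N and 8.39 in control.

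**Figure D1:**
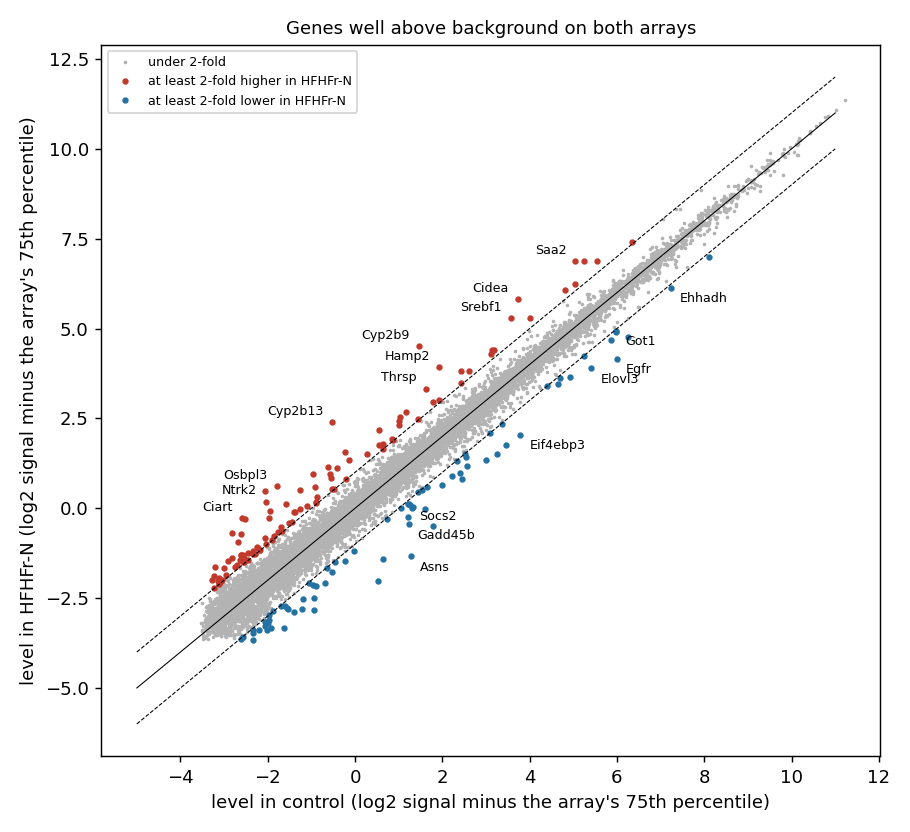
Level of each gene well above background on both arrays, HFHFr-N on the vertical axis against control on the horizontal axis, both as log2 signal minus the array's 75th percentile. The solid line marks equal levels and the dashed lines a 2-fold difference. Of 13520 genes, 103 lie above the upper dashed line and 77 below the lower one, and the genes farthest from the line include Cyp2b9, Cyp2b13, Osbpl3 and Ciart above it and Asns and Egfr below it.

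The highest ratios with a second probe that read alike belonged to Cyp2b9 and Cyp2b13, neighbouring cytochrome P450 genes on chromosome 7 that adult female mouse liver expresses and adult male liver normally represses. Their promoters are shown because the pair had like ratios and the sequences are nearly the same. The windows of 300 bases end shortly after the start of each gene (RefSeq, GRCm38.p6, plus strand), at chr7:26173159-26173458 for Cyp2b9 and chr7:26061245-26061544 for Cyp2b13. They were identical at 298 of 300 bases (99.3%), and capitals mark the 2 bases that differ.
Cyp2b9 promoter: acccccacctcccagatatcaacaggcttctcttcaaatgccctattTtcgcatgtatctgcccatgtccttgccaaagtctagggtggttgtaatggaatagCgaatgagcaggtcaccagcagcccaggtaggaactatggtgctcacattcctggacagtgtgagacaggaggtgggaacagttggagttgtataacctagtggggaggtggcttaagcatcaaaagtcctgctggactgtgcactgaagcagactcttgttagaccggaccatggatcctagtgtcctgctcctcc
Cyp2b13 promoter: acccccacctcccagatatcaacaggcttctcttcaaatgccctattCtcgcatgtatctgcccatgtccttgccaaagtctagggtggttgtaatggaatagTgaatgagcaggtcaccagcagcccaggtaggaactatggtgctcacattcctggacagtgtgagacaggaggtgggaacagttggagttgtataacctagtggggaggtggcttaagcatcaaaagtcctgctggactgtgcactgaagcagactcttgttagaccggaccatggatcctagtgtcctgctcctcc
A probe of each gene is printed in lower case with nothing marked, to show a stretch that its signal was read from. The Cyp2b13 probe gave the levels reported for that gene and lay within chr7:26873757-26880713, where a longer span than the probe itself was listed (mm9, plus strand, as given in the files). The Cyp2b9 probe printed is the gene's other probe, at chr7:26983484-26983543, with a level of 0.27 in HFHFr-N and -2.70 in control and a log2 ratio of 2.97. The levels reported for Cyp2b9 came from a brighter probe at chr7:26995607-26995666.
Cyp2b9 other probe: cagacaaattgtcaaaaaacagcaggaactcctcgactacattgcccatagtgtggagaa
Cyp2b13 probe: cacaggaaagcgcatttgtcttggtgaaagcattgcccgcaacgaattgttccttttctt
Hybridisation of such close relatives to each other's probes was not tested. Whether a probe lies in an exon, an intron or an untranslated region was not looked up, since no genome of the mm9 build was used here.

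Cyp2b9 had a level of 4.51 in HFHFr-N, 6.05 in HFHFr-F, 2.91 in HFHFr-NA, 5.10 in HFHFr-FA and 1.47 in control. Cyp2b13 had a level of 2.41 in HFHFr-N, 3.90 in HFHFr-F, 0.53 in HFHFr-NA, 2.89 in HFHFr-FA and -0.52 in control. For both genes HFHFr-F was the highest pool, HFHFr-N lay between it and control, and control was the lowest of the 5 pools. The log2 ratio of HFHFr-N over control was 3.05 (8.27-fold) for Cyp2b9 and 2.92 (7.59-fold) for Cyp2b13, with 2.80 on the other Cyp2b13 probe. Cyp2b10, the family member that drugs such as phenobarbital induce, was close to background on both arrays, at -3.11 in HFHFr-N and -3.27 in control. Its log2 ratio was 0.16, with the opposite sign (-0.17) after normexp.

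Other female-biased genes also stood among the highest ratios. Ntrk2, the receptor for brain-derived neurotrophic factor, had a level of 0.19 in HFHFr-N, 0.95 in HFHFr-F, -1.53 in HFHFr-NA, -1.71 in HFHFr-FA and -2.03 in control. Its log2 ratio was 2.22, and 2.37 on its other probe. Abcd2, a peroxisomal transporter of very long chain fatty acids, had -0.69 in HFHFr-N, -0.87 in HFHFr-F, -1.92 in HFHFr-NA, -1.74 in HFHFr-FA and -2.81 in control, with a log2 ratio of 2.12 on this probe and 0.67 on its other probe. Both genes were higher on the 2 arrays without retinoic acid after the HFHFr diet than on the 2 arrays with it. Of 18 measured genes of the female-biased list, 4 were at least 2-fold higher, 0 lower and 14 under that. Over all genes 1.15% were higher by 2-fold and 0.834% lower. The higher genes of the list were Cyp2b9, Cyp2b13, Ntrk2 and Abcd2, the last at 0.85 with normexp. The median log2 ratio was 0.21, beside 0.03 for all genes. Cyp2a4, a steroid hydroxylase of female liver, had a ratio of 0.99, just under 2-fold, with 1.16 on the higher of its other probes. Its close relative Cyp2a5 had 0.93, and signal shared between them was not separated. Cyp3a41a and Cyp3a44, further female-biased P450 genes, had ratios of 0.08, with the opposite sign after quantile normalization, and 0.09. Their levels were high in these male pools, at 9.66 in HFHFr-N and 9.58 in control for Cyp3a41a, and 7.94 and 7.85 for Cyp3a44. Signal shared with other Cyp3a genes was not separated, so these ratios may not be those of the named genes alone. The female-biased genes A1bg, Cux2 and Sult3a1 were not well above background on either array.

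Male-biased genes were lower on the whole but mostly by less than 2-fold. Of 20 measured, 2 were at least 2-fold lower, 0 higher and 18 by less than 2-fold, and 17 had ratios below 0 (45.4% of all genes did), with a median log2 ratio of -0.55 beside 0.03 for all genes. Elovl3, an elongase of long-chain fatty acids, had a level of 3.89 in HFHFr-N, 4.05 in HFHFr-F, 2.97 in HFHFr-NA, 5.68 in HFHFr-FA and 5.41 in control, a log2 ratio of -1.52. Socs2, which growth hormone induces through STAT5 and which restrains that signal, had 0.08 in HFHFr-N, -0.07 in HFHFr-F, -0.88 in HFHFr-NA, 1.72 in HFHFr-FA and 1.25 in control, a ratio of -1.17 (-0.97 with normexp). Cyp7b1, an oxysterol hydroxylase, had a ratio of -0.90 and Bcl6, a repressor that holds female-biased genes down in male liver, one of -0.74. Hsd3b5, a steroid dehydrogenase of male liver, had a level of 1.99 in HFHFr-N, no signal well above background in HFHFr-F, and levels of 0.47 in HFHFr-NA, 1.12 in HFHFr-FA and 2.67 in control. Its ratio in HFHFr-N was -0.68, and that of its relative Hsd3b4 was -0.62. Hsd3b2, a further relative in the list, went the other way, with 0.77 (0.84 on its other probe), the highest ratio of the list. Signal shared between these relatives was not separated. Mup3, a major urinary protein, had a ratio of 0.07.

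**Figure D2:**
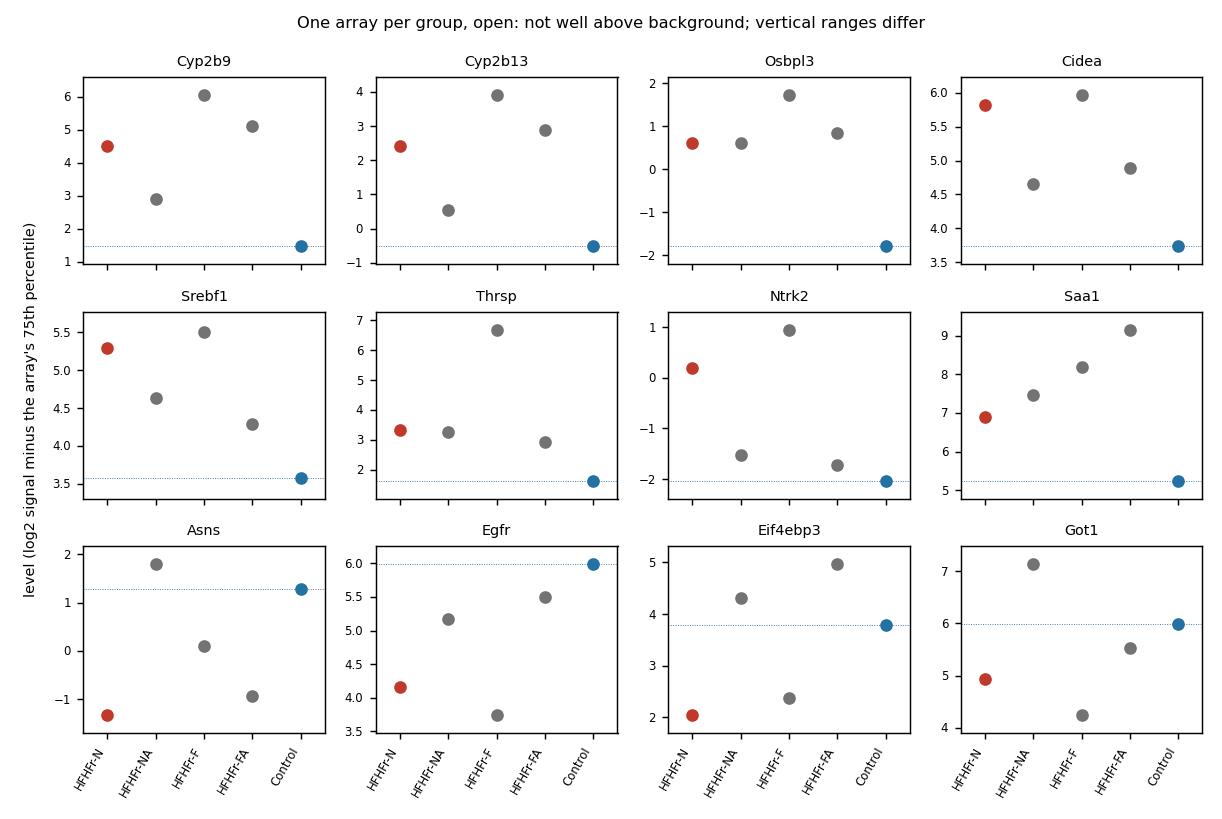
Level of 12 genes (vertical axes, log2 signal minus the array's 75th percentile, with a range of its own in each panel) on the 5 arrays, 1 array per group, with HFHFr-N in red at the left, control in blue at the right and the dotted line at the control level. Cyp2b9, Cyp2b13, Osbpl3, Cidea, Srebf1, Thrsp, Ntrk2 and Saa1 lie above control in HFHFr-N, and Asns, Egfr, Eif4ebp3 and Got1 lie below it.

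In lipid metabolism the higher genes included regulators, the droplet protein Cidea and uptake receptors, while the synthesis enzymes Fasn and Scd1 were near control. Srebf1, which encodes SREBP-1, had a level of 5.30 in HFHFr-N, 5.50 in HFHFr-F, 4.63 in HFHFr-NA, 4.29 in HFHFr-FA and 3.57 in control. Thrsp, a nuclear regulator of lipogenesis, had 3.33 in HFHFr-N, 6.69 in HFHFr-F, 3.28 in HFHFr-NA, 2.92 in HFHFr-FA and 1.63 in control. In HFHFr-N the level of Srebf1 was thus near that in HFHFr-F, and that of Thrsp well under it. The log2 ratios over control were 1.73 for Srebf1, 1.70 for Thrsp and 1.21 for Aacs, which activates acetoacetate for lipid synthesis. These 3 were the 2-fold higher genes among 26 measured for fatty acid and triglyceride synthesis, with 0 lower and a median of -0.05. Fasn, fatty acid synthase, had a ratio of -0.26 (-0.72 on its other probe) and Scd1, stearoyl-CoA desaturase, 0.21.

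Among 27 genes of lipid droplets and lipid uptake, 4 were at least 2-fold higher, 0 lower and 23 under that. Over all genes 1.15% were higher by 2-fold and 0.834% lower. The median log2 ratio of the list was 0.15, beside 0.03 for all genes. Osbpl3, a lipid-binding protein of the oxysterol-binding family, had a level of 0.62 in HFHFr-N, 1.72 in HFHFr-F, 0.61 in HFHFr-NA, 0.85 in HFHFr-FA and -1.79 in control. Its ratio was 2.41 (5.31-fold), and its other probe, not well above background in control, gave a bound of 1.87. Cidea, a droplet protein that enlarges droplets, had 5.82 in HFHFr-N, 5.96 in HFHFr-F, 4.65 in HFHFr-NA, 4.88 in HFHFr-FA and 3.73 in control, a ratio of 2.09 (4.26-fold). For Cidea the HFHFr-N and HFHFr-F pools were within 0.14 of each other on the log2 scale. Vldlr, the receptor for very low density lipoprotein, had a ratio of 1.51 (1.41 on its other probe) and Cd36, a fatty acid transporter, 1.17 (1.05 on its other probe). Cidec, the droplet relative of Cidea, had a ratio of -0.03 and Pparg, the nuclear receptor that governs fat storage, 0.60. Osbpl5, another oxysterol-binding family member outside the list, had 0.95 in HFHFr-N, 1.29 in HFHFr-F, 0.30 in HFHFr-NA, -0.30 in HFHFr-FA and -0.95 in control, a ratio of 1.91.

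Genes that burn fatty acids were mostly a little below control. Of 27 targets of the fasting receptor PPARA and genes of fatty acid oxidation, 3 were at least 2-fold lower, 0 higher and 24 under 2-fold, and 20 had ratios below 0, beside 45.4% of all genes, with a median log2 ratio of -0.20. Pdk4, a kinase that spares glucose by shutting pyruvate dehydrogenase, had a level of 0.02 in HFHFr-N, 2.34 in HFHFr-F, 0.45 in HFHFr-NA, 3.91 in HFHFr-FA and 1.31 in control, a ratio of -1.29. Ehhadh, a peroxisomal oxidation enzyme, had 6.13 in HFHFr-N, 4.99 in HFHFr-F, 6.08 in HFHFr-NA, 6.12 in HFHFr-FA and 7.23 in control, a ratio of -1.10. Fgf21, a hormone that liver releases in fasting and protein restriction, had 1.505 in HFHFr-N, 1.67 in HFHFr-F, 2.12 in HFHFr-NA, 3.71 in HFHFr-FA and 2.51 in control. Its ratio was -1.01, and -1.12 on its other probe, but -0.91 with normexp and -0.99 with quantile normalization. The pools of HFHFr-N and HFHFr-F lay on opposite sides of control for Pdk4 and on the same side for Ehhadh and Fgf21. Cpt1a, which admits fatty acids to mitochondria, had a ratio of -0.11. All 24 genes of cholesterol synthesis and uptake were under 2-fold, with a median of -0.19 and a lowest ratio of -0.82 for Cyp51, a demethylase of sterol synthesis. All 26 genes of bile acid synthesis and transport were under 2-fold too, with 0.51 for Cyp7a1, which sets the rate of bile acid synthesis, and -0.92 for Cyp8b1, which sets the cholic acid share.

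Asns, asparagine synthetase, had the lowest ratio among the named genes that both arrays measured. Its promoter is shown because amino acid shortage acts on Asns through a C/EBP-ATF element. The window is chr6:7693160-7693459 (RefSeq, GRCm38.p6, minus strand), and capitals mark the match to TGATGNAA, whose first base lies 23 bases before the start.
Asns promoter: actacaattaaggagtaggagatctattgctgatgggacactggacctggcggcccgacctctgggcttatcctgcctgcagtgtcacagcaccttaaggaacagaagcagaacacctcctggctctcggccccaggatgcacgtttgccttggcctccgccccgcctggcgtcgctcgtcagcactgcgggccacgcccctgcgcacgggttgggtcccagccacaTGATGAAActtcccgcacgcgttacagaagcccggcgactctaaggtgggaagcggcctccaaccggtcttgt
The motif was searched on both strands and stood in 3.97% of 32851 promoter windows of this length. By gene it stood in 4.51% of all genes with a window, and in 7 of the 26 genes of the amino acid response list that had a window (Asns, Atf3, Chac1, Nupr1, Pycr1, Slc7a11 and Trib3). A match is a description of letters and does not show a working site. Asns had a level of -1.33 in HFHFr-N, 0.10 in HFHFr-F, 1.80 in HFHFr-NA, -0.95 in HFHFr-FA and 1.27 in control, a log2 ratio of -2.61 (6.09-fold lower). It was lowest in HFHFr-N and highest in HFHFr-NA, which differ by the retinoic acid in the normal diet.

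The other genes of this response were mostly near control. Of 21 measured, 1 was at least 2-fold higher, 1 lower and 19 under that, and the median log2 ratio was 0.00. The higher gene was Chac1, a glutathione-degrading enzyme, at 1.03, with 0.72 after normexp and 0.98 after median centring. The transcription factors Atf4, Ddit3 and Atf5 had ratios of -0.31, -0.32 and -0.80, Atf3 had 0.89, and Trib3, a pseudokinase of the same pathway, 0.16. Among 27 amino acid catabolism genes, 1 was lower by 2-fold and 26 were under 2-fold, and 21 had ratios below 0, beside 45.4% of all genes, with a median of -0.13. The lower gene was Got1, the cytosolic aspartate aminotransferase, with a level of 4.94 in HFHFr-N, 4.24 in HFHFr-F, 7.14 in HFHFr-NA, 5.52 in HFHFr-FA and 5.98 in control, a ratio of -1.04. Gldc, of glycine breakdown, had -0.72 and Sds, serine dehydratase, -0.66. All 8 urea cycle genes were under 2-fold and 7 had ratios below 0, with a median of -0.26 and -0.68 for Asl, argininosuccinate lyase. Most periportal hepatocyte markers (Hal, Sds, Gls2, Uroc1, Ass1, Asl, Cps1 and Arg1) also stand in the catabolism and urea cycle lists. They therefore largely repeat the same genes. The periportal markers had a median of -0.34, with 11 of 13 below 0. Their summed level was 888 in HFHFr-N, in multiples of the array's 75th percentile, against 1120 in control. The part of periportal cells in these ratios was not tested, and in bulk liver fewer cells of a type and less RNA per cell cannot be told apart.

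Egfr was among the 15 lowest ratios that both arrays measured, as were Eif4ebp3, Avpr1a and Slc25a30. Egfr, the epidermal growth factor receptor, had a level of 4.16 in HFHFr-N, 3.74 in HFHFr-F, 5.18 in HFHFr-NA, 5.50 in HFHFr-FA and 5.99 in control, a log2 ratio of -1.83 (3.56-fold lower). All 4 of its other probes above background were lower as well, between -2.08 and -1.06. Eif4ebp3, which binds the cap-binding protein and holds translation back, had 2.04 in HFHFr-N, 2.37 in HFHFr-F, 4.31 in HFHFr-NA, 4.97 in HFHFr-FA and 3.79 in control, a ratio of -1.74 (-1.69 on its other probe). For both genes the 2 arrays without retinoic acid after the HFHFr diet were the lowest of the 5. Avpr1a, the vasopressin receptor of hepatocytes, had -0.01 in HFHFr-N, 0.12 in HFHFr-F, 0.65 in HFHFr-NA, 2.02 in HFHFr-FA and 1.60 in control, a ratio of -1.61. Slc25a30, a mitochondrial carrier, had a ratio of -1.64, with -1.52 and -1.05 on its other probes. Egfr was the 2-fold gene among 15 measured growth factor and cytokine receptors and ligands, whose median was -0.05.

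The leptin receptor gene Lepr had a level of -4.36 in HFHFr-N and -4.00 in HFHFr-F, neither well above background. It had -2.99 in HFHFr-NA, -2.14 in HFHFr-FA and -2.80 in control, and as a bound was 1.85-fold lower in HFHFr-N. Igfbp1, an insulin-repressed binding protein for insulin-like growth factors, had 4.78 in HFHFr-N, 6.61 in HFHFr-F, 6.45 in HFHFr-NA, 8.90 in HFHFr-FA and 6.26 in control, a ratio of -1.49. This value has a local limit: 3 of the 8 spots nearest to Igfbp1 on the array were 2-fold lower in HFHFr-N as well, with a median of -0.76 over the 8. Igfbp2 had a ratio of -0.91 and Igf1, the main growth hormone effector made by liver, -0.21. All 18 measured genes of insulin signalling were under 2-fold, with a median of 0.10, the lowest ratio at Akt2 (-0.55, and 0.01 on its other probe) and the highest at Pik3r1 (0.50). All 16 genes of gluconeogenesis and glycogen were under 2-fold, with -0.81 for G6pc, the catalytic subunit of glucose-6-phosphatase.

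Stress and growth-arrest genes were split. Among 13 measured p53 targets and Gadd45 genes, 3 were at least 2-fold lower and 1 higher, beside 0.834% lower and 1.15% higher of all genes. Gadd45b had a level of -0.45 in HFHFr-N, 0.31 in HFHFr-F, -0.30 in HFHFr-NA, 1.46 in HFHFr-FA and 1.23 in control, a log2 ratio of -1.68 (-1.15 on its other probe). Gadd45g had a ratio of -1.07 and Cdkn1a, the cell cycle inhibitor p21, -1.38, while Gadd45a had 1.24. With normexp Cdkn1a had -0.69 and Gadd45a 0.80, both under 2-fold. So within the Gadd45 family, which senses stress and DNA damage, members lay on both sides of control. Ccne1, a cyclin of the entry into DNA replication, was higher by 1.30 (0.86 with normexp), the 2-fold gene among 18 of the cell cycle. Most chaperone genes had ratios below 0, against 45.4% of all genes. Of 26 genes of the unfolded protein response 23 had ratios below 0, none by 2-fold, with a median of -0.20 and -0.63 for Hspa5, the main chaperone of the endoplasmic reticulum. Among 19 heat shock chaperones 17 lay below 0, with a median of -0.25 and 1 of them, Hspa1b, 2-fold lower at -1.06 (-0.67 with normexp).

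Clock genes of HFHFr-N lay on both sides of control, with the activator Arntl lower and several of its target genes higher. The clock activator BMAL1, encoded by Arntl, and its partner CLOCK switch on the repressor genes Per and Ciart and the output factor Dbp through E-boxes, so that activator and targets peak at different hours. The Ciart promoter is shown because it holds 3 E-boxes (CACGTG, in capitals), beginning 116, 58 and 44 bases before the start, in the window chr3:95882179-95882478 (RefSeq, GRCm38.p6, minus strand).
Ciart promoter: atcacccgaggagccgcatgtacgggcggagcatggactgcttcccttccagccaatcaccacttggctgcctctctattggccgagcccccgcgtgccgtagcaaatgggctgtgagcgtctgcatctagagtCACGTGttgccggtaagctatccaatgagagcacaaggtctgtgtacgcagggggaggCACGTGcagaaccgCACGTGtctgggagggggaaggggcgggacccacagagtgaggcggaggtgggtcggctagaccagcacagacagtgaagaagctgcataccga
An E-box stood in 7.15% of all promoter windows on either strand. By gene it stood in 8.09% of all genes with a window, and in 5 of the 20 clock list genes with a window (Bhlhe41, Ciart, Cry1, Per1 and Tef). A D-box (TTATGNAA) stood in 3.38% of windows, in 3.99% of genes and in 3 of the 20 (Noct, Per1 and Per3). The D-box and C/EBP-ATF letters differ at 1 position, the second from the left. A window without one says nothing about a factor's binding elsewhere.

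Arntl had a level of -3.84 in HFHFr-N, where it was not well above background, with -1.24 in HFHFr-F, -3.32 in HFHFr-NA, 0.19 in HFHFr-FA and -1.18 in control. As a bound it was 5.68-fold lower in HFHFr-N than in control. Ciart, a repressor of the clock activators, had -0.27 in HFHFr-N, -2.19 in HFHFr-F, 0.58 in HFHFr-NA, -4.56 in HFHFr-FA (not well above background) and -2.60 in control, a ratio of 2.32. Dbp, an output transcription factor, had 6.88 in HFHFr-N, 4.91 in HFHFr-F, 6.76 in HFHFr-NA, 3.10 in HFHFr-FA and 5.54 in control, a ratio of 1.35. The HFHFr-N and HFHFr-NA pools were thus the lowest in Arntl and the highest in Ciart and Dbp, and the HFHFr-FA pool was the highest in Arntl and the lowest in both. Usp2, a rhythmic deubiquitinase, had 1.55 in HFHFr-N, 0.98 in HFHFr-F, 1.82 in HFHFr-NA, -0.51 in HFHFr-FA and -0.23 in control, a ratio of 1.78. Per2 was higher by 1.07 on its chosen probe, with -0.18 on its other probe. With normexp Arntl had -0.90 and Per2 0.76. Other clock genes had smaller ratios: 0.68 for Tef, 0.57 for Nr1d2, 0.36 for Per1 and 0.32 for Cry2 on the higher side, and -0.49 for Clock and -0.56 for Nfil3 on the lower. Nr1d1, the repressor REV-ERB alpha, had -0.11 in HFHFr-N and 0.08 in control, a ratio of -0.19. Of 20 measured clock genes, 4 were at least 2-fold higher, 1 lower and 15 by less than 2-fold, at a median of 0.44. Over all genes 1.15% were higher by 2-fold and 0.834% lower, at a median of 0.03. Npas2, Cry1, Per3, Bhlhe41 and Wee1 were not well above background on either array. No source used here gives the hour at which livers were taken. A difference in sampling time and a difference between diets thus cannot be told apart for these genes. The same limit holds for any gene named elsewhere here whose level varies over the day.

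**Figure D3:**
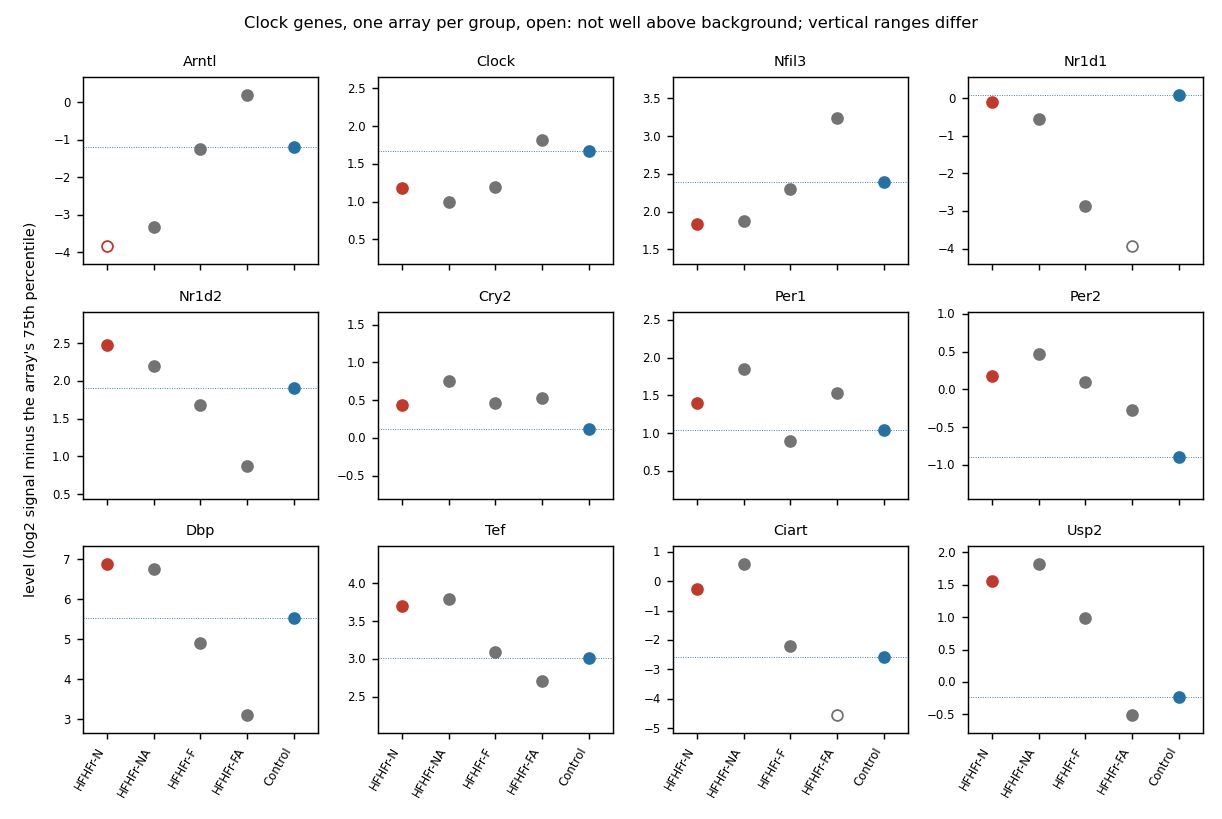
Level of 12 clock genes (vertical axes, log2 signal minus the array's 75th percentile, with a range of its own in each panel) on the 5 arrays, 1 array per group, with HFHFr-N in red at the left, control in blue at the right and the dotted line at the control level. Open circles were not well above background. Arntl, Clock and Nfil3 lie below control in HFHFr-N, and Ciart, Usp2, Dbp and Per2 lie at least 2-fold above it.

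Acute phase genes, which inflammatory cytokines switch on in hepatocytes, were higher in part. Of 29 measured, 6 were at least 2-fold higher, 0 lower and 23 under that, beside 1.15% higher and 0.834% lower of all genes. The median log2 ratio was 0.20, beside 0.03 for all genes. Saa2, a serum amyloid A protein, had a level of 6.88 in HFHFr-N, 8.16 in HFHFr-F, 7.48 in HFHFr-NA, 9.29 in HFHFr-FA and 5.05 in control, a ratio of 1.83 (3.55-fold). Saa1 had 6.88 in HFHFr-N, 8.18 in HFHFr-F, 7.45 in HFHFr-NA, 9.15 in HFHFr-FA and 5.25 in control, a ratio of 1.64 (1.68 on its other probe), and signal shared between these near-identical genes was not separated. Lcn2, an iron-sequestering lipocalin, had -1.26 in HFHFr-N, 1.49 in HFHFr-F, 0.15 in HFHFr-NA, 1.85 in HFHFr-FA and -3.83 in control, where it was not well above background. As a bound Lcn2 was 4.85-fold higher in HFHFr-N, with a log2 ratio of 0.81 after normexp. For these 3 genes HFHFr-N was the lowest of the 4 pools that had received HFHFr diet, and control was lower still. Orm3, an orosomucoid, had a ratio of 1.48. Hamp2, a relative of hepcidin outside the acute phase list, had 3.92 in HFHFr-N, 3.14 in HFHFr-F, 2.60 in HFHFr-NA, 1.64 in HFHFr-FA and 1.93 in control. Its ratio was 1.996 (3.99-fold), while Hamp, hepcidin itself, had 0.35. Hamp2 was the 2-fold gene among 14 measured for iron handling, whose median was 0.07.

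Inflammation and macrophage genes differed little, and a few stood out. Of 18 measured inflammation and chemokine genes, 1 was 2-fold higher and 1 lower, with a median log2 ratio of 0.23. Cxcl1, a chemokine that draws neutrophils, had a level of -0.72 in HFHFr-N, -0.53 in HFHFr-F, -0.40 in HFHFr-NA, -0.61 in HFHFr-FA and -2.61 in control, a ratio of 1.89. It was alike in the 4 pools that had received HFHFr diet and lower in control. Cxcl13, which draws B cells, had a ratio of -1.33, and Ccl2, which draws monocytes, 0.61. With normexp Cxcl1 had 0.80 and Cxcl13 -0.51. Among the 8 lipid-associated macrophage markers measured, 2 were higher by 2-fold, beside 1.15% of all genes. Their median was 0.39, beside 0.03 for all genes. Trem2, a lipid-sensing receptor, had -0.62 in HFHFr-N, 2.54 in HFHFr-F, 0.31 in HFHFr-NA, 1.15 in HFHFr-FA and -1.68 in control, a ratio of 1.06. Itgax, an integrin, was not well above background in control. It was higher in HFHFr-N by a bound of 2.42-fold, at levels of -2.26 in HFHFr-N and -4.41 in control. With normexp Trem2 had 0.40 and Itgax 0.47, under 2-fold. The markers Gpnmb, Mmp12, Fabp5 and Atp6v0d2 were not well above background on either array.

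All 16 Kupffer cell and macrophage markers were above background on both arrays and under 2-fold. Their median log2 ratio was 0.21, and their summed level was 125 in HFHFr-N against 103 in control. Class II and dendritic cell markers had a median of 0.20 (8 measured) and stellate cell markers 0.24 (11 measured), none 2-fold. Among 20 matrix genes 1 was 2-fold lower, Loxl1, by a bound of 2.03-fold (levels of -3.57 in HFHFr-N and -2.55 in control, a log2 ratio of -0.21 with normexp). The other 19 were under 2-fold, with 0.97 for Col1a1 and 0.75 for Col3a1, the chains of type I and type III collagen. Endothelial markers had a median of 0.07 (13 measured). The cholangiocyte marker Sox9 had a ratio of -1.24 (-1.03 on its other probe, -0.85 with normexp) among 5 measured markers with a median of 0.00, and Cftr, Epcam and Muc1 of that list were below background on both. The 4 measured erythroid markers had a median of 0.05. Cfd, which encodes adipsin and is best known from fat cells, was higher by 1.27, while the fat cell markers Adipoq, Lep, Retn and Plin1 were below background on both arrays. Immunoglobulin probes went both ways: Igl-V1 was higher by 1.79 (with bounds between 0.55 and 2.22 on 4 other probes, above background in HFHFr-N alone), and Igh-2 (-2.04) and Igh-VJ558 (-2.27) were lower, beside a median of 0.40 over 4 measured B and plasma cell markers. Other Igh-VJ558 probes differed, with -0.45 on one and a bound of 0.49, above background in HFHFr-N alone, on another. The part of immune and other cells in the ratios above was not tested.

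Several fixed groups held no gene at 2-fold in either direction. These were 28 genes of oxidative phosphorylation (median log2 ratio 0.06), 25 of the interferon response (-0.10), 25 of retinoid metabolism and signalling (0.09), 21 of xenobiotic cytochromes and their regulators (0.16), 21 NRF2 targets and conjugation enzymes (0.11) and 15 immediate early genes (-0.06). Within them Cyp26a1, the enzyme that clears retinoic acid, had -0.08, Rarg, a retinoic acid receptor, -0.98 (and a bound of 0.60 on another probe, above background in HFHFr-N alone), and Cyp2a5, which hydroxylates coumarin, 0.93. Among cell types, 14 pericentral hepatocyte markers (0.03), 6 of T and NK cells (-0.04) and 5 of monocytes and neutrophils (0.41) had none either. Over all measured genes the shares at 2-fold were 1.15% higher and 0.834% lower, and the median was 0.03.

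**Figure D4:**
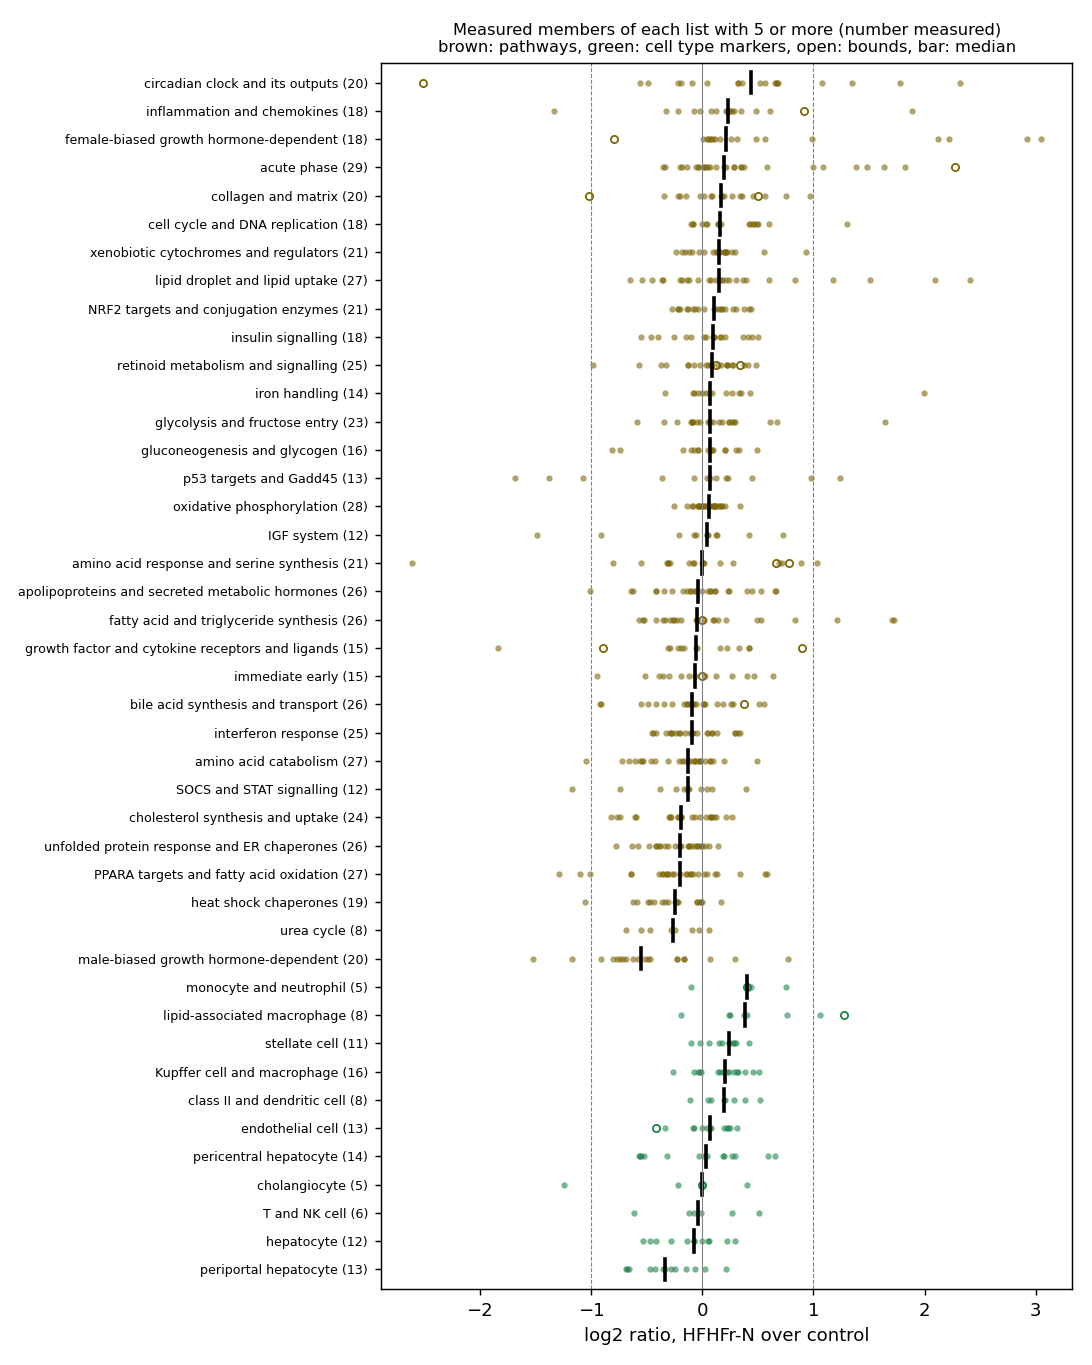
Log2 ratio of HFHFr-N over control (horizontal axis) for every measured member of each gene list with at least 5 measured members, with the number measured in brackets; brown points are pathway lists, green points cell type markers, open circles bounds and black bars list medians. The dashed lines mark 2-fold. The male-biased list has the lowest median, -0.55, and the clock list the highest, 0.44.

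Agreement between probes bears on how far single ratios can be read. Of 15 higher genes with another probe above background on both arrays, 13 had the same sign on it and 8 were again at least 2-fold higher. Of 20 such lower genes, 14 had the same sign and 10 were again at least 2-fold lower. The median log2 ratio was 1.51 on the chosen probe and 1.05 on the other for the higher genes, and -1.36 and -0.77 for the lower. None was 2-fold the opposite way. Across all 3912 genes with another probe, 2663 had the same sign. Ccdc71, a coiled-coil protein gene, had -1.73 on the chosen probe and 0.14 on the other.

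**Figure D5:**
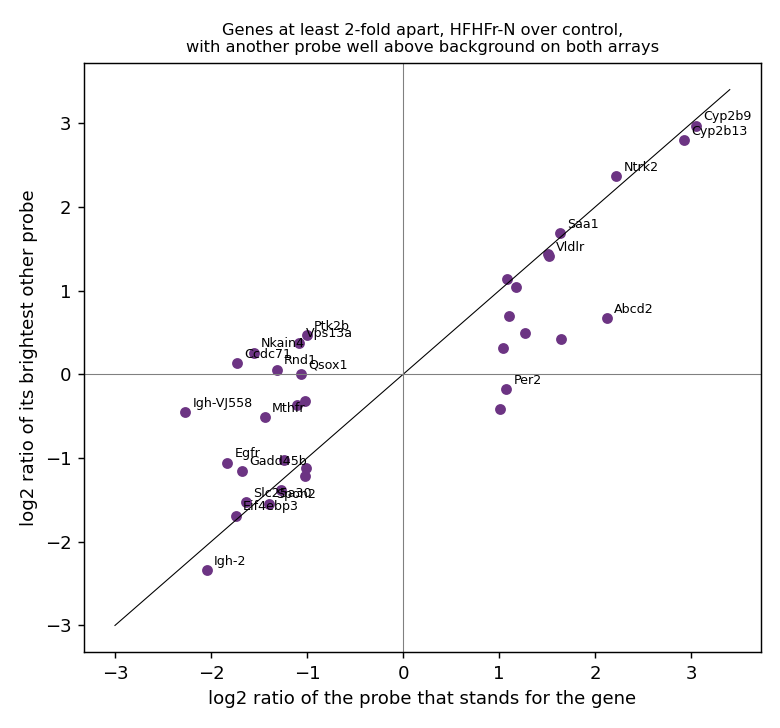
Log2 ratio of HFHFr-N over control on the probe that stands for each gene (horizontal axis) against that on its brightest other probe (vertical axis), for the 15 higher and 20 lower genes at 2-fold that had another probe well above background on both arrays. The diagonal marks equal ratios. Cyp2b9, Cyp2b13, Ntrk2, Saa1 and Vldlr lie near it, and Abcd2, Per2, Ccdc71 and Igh-VJ558 lie far from it.

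Some of the most extreme ratios rested on 1 array and 1 probe. Olfr1387, an olfactory receptor gene, had a level of 0.49 in HFHFr-N and was not well above background on the other 4 arrays. Its bound was a 16.3-fold difference from control at -5.19. Zfp101 (2.56) and Gpr21 (6.75-fold higher as a bound, with -0.78 in HFHFr-N and -5.52 in control) were bright in HFHFr-N. For each, 5 of the 8 nearest spots were 2-fold higher too. Ms4a12 and Cacnb2 were above background on the control array alone. Ms4a12 had -5.77 in HFHFr-N and -0.70 in control, 7.93-fold lower as a bound. Cacnb2 had -5.52 in HFHFr-N and -1.44 in control, 4.75-fold lower as a bound, with a log2 ratio of -0.73 after normexp. Taf15, an RNA-binding protein gene with 1 measured probe, had -2.04 in HFHFr-N, 1.03 in HFHFr-F, 0.83 in HFHFr-NA, -0.31 in HFHFr-FA and 0.52 in control. Rraga, a GTPase of amino acid sensing, had 1.76 in HFHFr-N, 3.27 in HFHFr-F, 3.18 in HFHFr-NA, 2.74 in HFHFr-FA and 3.47 in control. Taf15 and Rraga were lowest in HFHFr-N of the 5 pools, with log2 ratios of -2.56 and -1.71.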

How the data were processed

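Pooled liver RNA of 5 mice was labelled with Cy3 and put on 1 Agilent array for each group, per the labels. Per the file headers, the scanner software was Feature Extraction 10.5.1.1 and probe positions follow mm9. Processed intensity, as deposited, had background subtracted and spatial trends removed, and dim spots carry substitute values, per the file headers. Mean and background intensity, used in an alternative, were deposited unprocessed. The authors' value table holds a linear ratio, the processed intensity over a constant (165 in HFHFr-N and 167 in control), which a comparison with the scanner values showed. Its medians were 0.0738 in HFHFr-N, 0.0675 in HFHFr-F, 0.0744 in HFHFr-NA, 0.0721 in HFHFr-FA and 0.0700 in control. It is not centred across arrays and keeps the direction of the signal, so scale, centring and direction are known, but no source used here says how the constant was chosen.

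Each array held 45018 spots, of which 43379 were not controls. Spots well above background were 48.4% in HFHFr-N and 46.7% in control, and 46.7% to 49.4% over the 5 arrays, whose number limits the precision. No spot was saturated, and outlier spots, 60 in HFHFr-N and 89 in control, were left out. HFHFr-N and control shared a slide and scan with HFHFr-NA and HFHFr-F, and HFHFr-FA stood alone on another, where its slide cannot be told apart from its diet. The 75th percentile of non-control spots (172 in HFHFr-N, 174 in control) was divided out before log2. Of 41174 probes, 24844 were named through RefSeq accessions and 16330 kept the name in the file. For the 8582 of 28632 genes with several probes, the probe brightest on average across the 5 arrays was used. Where 1 of the 2 arrays was not above background, the ratio is a bound, taken against the gene's own signal there or, if higher, the dimmest signal that passed as well above background.

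Of 854 listed symbols in 32 pathway and 16 marker lists, 842 matched. Named genes were the 15 highest and 15 lowest ratios with a proper symbol above background on both arrays, the 3 highest and 3 lowest bounds, up to 4 members of each list with the largest ratio in size, all measured clock, amino acid response, male-biased and female-biased genes, and 16 fixed genes, 264 in all. The text names part of them. Genes named outside this rule, such as those not above background, were chosen after their values were seen. The comparison, members and lists were chosen with earlier results of these data known. With 1 array per group, groups were not tested and no replicate error exists. The ratio step was tested on simulated data with known changes in genes measured on both arrays. Recovery of known changes as bounds was not scored. Python 3.11.15, numpy 2.4.6, pandas 2.3.3, Biopython 1.88, R 4.3.3 and limma 3.58.1 were used. Alternatives were median centring, cyclic loess, quantile normalization, normexp background with an offset of 50, other detection and probe rules, outlier spots kept, spots beside at least 3 of 8 like spots left out, and the value table. Protein sequences were not used here.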

Additional observations from a re-analysis of the deposited data

How the results depend on the processing

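The 167 higher and 121 lower genes of HFHFr-N against control became 46 and 31 with normexp background correction, and 47 and 32 with normexp and quantile normalization. Requiring both arrays above background gave 103 and 77 of 13520 genes, and no detection filter gave 981 and 863 of 28632, since fewer or more dim genes were counted. Counts stayed within 1.5 times of these under the other alternatives: 145 and 139 with median centring, 169 and 120 with cyclic loess, 156 and 131 with quantile normalization, 162 and 117 with the mean of all probes, 154 and 111 without spots beside like spots, and 167 and 121 with outlier spots kept or with the value table. The higher share of 2-fold genes was 58.0%, and 51.1% with median centring, and without a filter the median of all genes was -0.13. Of 65 named genes at 2-fold, 43 stayed so in the same direction with normexp, with or without quantile normalization. The offset of 50 used there shrinks ratios of dim genes by design, and its part in each gene was not tested. Those under 2-fold with normexp included Arntl (-0.90), Lcn2 (0.81), Cxcl1 (0.80), Abcd2 (0.85), Trem2 (0.40), Itgax (0.47), Per2 (0.76), Cdkn1a (-0.69), Gadd45a (0.80), Ccne1 (0.86), Chac1 (0.72), Sox9 (-0.85), Socs2 (-0.97) and Fgf21 (-0.91). The mean of all probes left Per2 at 0.45, Trem2 at 0.96, Ccdc71 at -0.80 and Igh-VJ558 at -0.74. Chac1 was 0.98 with median centring and Fgf21 -0.99 with quantile normalization. Spots beside like spots included those of Igfbp1, Zfp101 and Gpr21. None of the 65 changed sign. Of all 264 named genes 16 did under some alternative, the largest of them in size 0.49 in the main setting (Mcm5, with normexp). So did 5 of 48 list medians, all within 0.08 of 0: amino acid response, IGF system, pericentral hepatocyte, T and NK cell and pancreas acinar. No paired analysis was possible because each group was 1 pooled array. Genes near background have the least certain ratios.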
